A study of Homo sapiens with 6 samples.

Results

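The 3 control arrays of the series, out of 6 arrays in all, measured RNA of SUM159 cells at day 6 of three-dimensional culture, and they were chosen by their labels alone. SUM159, an established line of human breast cancer cells, was used by the paper to represent the mesenchymal stem-like subtype of triple-negative breast cancer, and the other 3 arrays came from SUM159 cells with stable knockdown of the TGF-β type III receptor, TβRIII. Those 3 arrays entered no test or mean below, but the deposited signals were normalized by the authors, and the knockdown arrays may have shared in that normalization. The controls are labelled with genotype control and with no treatment, the cells were grown embedded in growth factor reduced matrigel, a basement membrane extract, and the line is maintained in medium with serum and hydrocortisone. The shRNA vector carried by the control cells on the arrays is not given in the labels, and all controls are 1 cell population. The labels and the paper do not say whether the arrays came from separately grown cultures, so p-values refer to the spread between these samples only, which may be technical. That spread is a common one estimated over all genes against the bound of each array, not the spread of each gene itself.

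Breast epithelium holds an inner luminal layer, marked by simple keratins and hormone receptors, and an outer basal or myoepithelial layer, marked by basal keratins and contractile proteins. In epithelial-mesenchymal transition (EMT), factors of the SNAI, TWIST and ZEB families repress E-cadherin and other junction genes, and cells gain vimentin, N-cadherin and fibronectin. Triple-negative tumors lack estrogen and progesterone receptors and amplified HER2, and their mesenchymal subtypes are known for matrix, growth factor receptor and EMT genes.

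The arrays carry 22148 transcript clusters, which are groups of probes along 1 gene or transcript, and 19129 of them have a single gene symbol. Taking the cluster with the highest mean level for each gene gave 18276 genes, of which 626 had several clusters to choose from. Levels are the log2 RMA signals of the authors, and array medians over genes and other clusters were 7.68, 7.70 and 7.69. The 3 arrays correlated with r = 0.995 to 0.996 across clusters, which are not independent replicates. The median SD of a gene over the 3 arrays was 0.0861 on the log2 scale, and 350 genes had an SD over 0.3. Probes differ in how brightly they respond, so a level was read mainly against a bound of background. Ranks of genes by level, such as the top 10%, order the signals of these probes and not the amounts of RNA.

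Background was read from gene families that a breast cancer line is not known to use, and it depended on the family. The 95th percentile of 338 olfactory receptor genes, the receptors of smell in nasal neurons, was 6.90, 6.73 and 6.88 on controls 1, 2 and 3. The same percentile of 145 genes of other silent families (taste receptors, keratin-associated proteins, beta-defensins, gamma crystallins, trace amine receptors and late cornified envelope proteins) was 8.81, 8.62 and 8.75. The mean of the bound was 6.84 by the first set and 8.73 by the second, a gap that many genes fall into. The median level was 5.25 for olfactory receptors, 6.90 for the 66 keratin-associated protein genes, 7.31 for the 17 late cornified envelope genes and 4.75 for the 24 beta-defensin genes. Why the families differ was not tested.

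By limma, 11585 genes (63.4%) lay above the olfactory receptor bound at an adjusted p under 0.05 and 5487 (30.0%) lay below it. Above both bounds were 4649 genes (25.4%), between the bounds 6936 (38.0%), and 6691 (36.6%) were not above the lower bound and are called near background. Counts of the lists below are to be read beside these shares of all genes. A gene near background may still be transcribed at a level these probes do not separate from silent genes. Genes called high are the top 10% by mean level, 1828 genes at 9.94 or more. The plot of level distributions shows how far the reference families overlap the bulk of all genes.

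**Figure D1:**
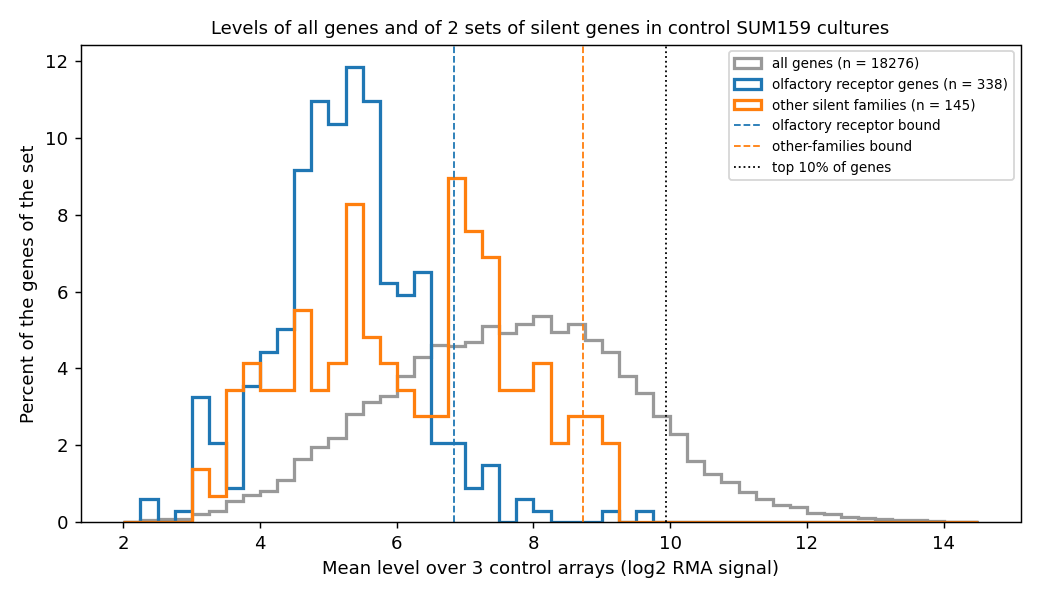
Percent of the genes of each set (y axis) in bins of 0.25 of the mean log2 RMA level over 3 control arrays (x axis), for all genes in grey, olfactory receptor genes in blue and other silent families in orange, with dashed lines at the 2 background bounds (6.84 and 8.73) and a dotted line at the top 10% of genes (9.94). Silent families other than olfactory receptors reach into the range where most genes lie.

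In the control cultures the simple keratins KRT8, KRT18 and KRT7 were high, and no measured basal keratin was above both bounds. KRT8 and KRT18, partners in the filaments of simple epithelia, had levels of 11.75, 11.97 and 11.79 and 10.94, 11.33 and 10.93 on controls 1, 2 and 3. KRT7, a simple keratin of ducts, had levels of 10.40, 10.54 and 10.39. All arrays put these 3 genes among the top 10%, with control 2 the highest array for each. KRT19, another simple keratin of luminal cells, lay between the bounds at 7.12 ± 0.09 (mean ± SD, n = 3 arrays), and KRT20 and KRT23 were near background. Of 12 measured basal and stratified keratins, 5 lay between the bounds (KRT5, KRT14, KRT16, KRT4 and KRT13) and 7 were near background. KRT5 and KRT14, the basal keratin pair, had means of 8.19 ± 0.27 and 7.57 ± 0.08, and KRT5 spread from 7.93 on control 1 to 8.47 on control 2. KRT13 was called above the lower bound with the 3 arrays (adjusted p = 0.0196, limma) and not when control 1 or control 3 was left out.

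Genes that define epithelial identity were mostly near background, a majority that depended on the percentile used for the lower bound. Of 25 measured, 1 lay above both bounds (4.0%, beside 25.4% of all genes), 6 between them and 18 near background. Over all genes, 36.6% were near background. Of the 18 epithelial genes near background, 13 were called below the lower bound by limma and the rest were undecided. With the bound at the 90th percentile of olfactory receptors, the epithelial genes above background went from 7 to 13 of 25. CDH1, which encodes E-cadherin, the cadherin of epithelial adherens junctions, had levels of 5.44, 5.42 and 5.17, all below the lower bound of the same array. EPCAM, an epithelial adhesion molecule, had levels of 6.05, 5.85 and 5.96, and GRHL2, a factor that maintains the epithelial state, 5.71, 5.88 and 5.68. Neither gene reached the lower bound on any array. MUC1, a membrane mucin, was the gene above both bounds at 9.06 ± 0.14. Between the bounds lay LSR, SPINT1, LLGL2, CRB3, TMEM125 and CD24. CD24, a surface glycoprotein that is often low in stem-like breast cancer cells, had levels of 7.84, 6.49 and 7.56. Control 2 lay under its own bound while controls 1 and 3 lay over it, so the call of CD24 as above background rests on those arrays, and it was lost without control 1 and with robust moderation.

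Hormone receptors of the luminal layer were near background, while a few luminal genes were high. ESR1, the estrogen receptor, had levels of 6.35, 6.27 and 6.36, and PGR, the progesterone receptor, had a mean of 5.08 ± 0.11, with all arrays under the lower bound for both. FOXA1 and GATA3, luminal transcription factors, lay between the bounds at 7.60 ± 0.08 and 7.73 ± 0.11. Of these 27 genes, 4 lay above both bounds (14.8%, beside 25.4% of all genes), 4 between and 19 near background. Above both bounds were CA12, a carbonic anhydrase (11.35, 11.30 and 11.45), XBP1, a factor of secretory cells (10.32 ± 0.01), the zinc transporter SLC39A6 (9.62 ± 0.10) and TBX3, a factor of mammary development (9.08 ± 0.13). The milk genes CSN2, CSN3, CSN1S1 and LALBA had means from 3.95 for LALBA to 5.10 for CSN3, all near background. Basal and myoepithelial genes had 7 of 19 measured above both bounds (36.8%), 8 between and 4 near background. MME, the CD10 protease of myoepithelial cells, had levels of 11.80, 11.42 and 11.64, and CAV1, a coat protein of caveolae, 11.61, 11.60 and 11.47. ACTA2, smooth muscle actin, lay above both bounds at 9.74 ± 0.01. The contractile genes TAGLN and CNN1, TRIM29 and the transcription inhibitor ID4 were near background.

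Vimentin, N-cadherin and the EMT repressors SNAI2, TWIST1, ZEB1 and ZEB2 lay above both bounds on every array. Of 24 mesenchymal cytoskeletal and surface genes measured, 15 lay above both bounds (62.5%, beside 25.4% of all genes), 5 between and 4 near background, and 13 were high. VIM, the vimentin filament of mesenchymal cells, had levels of 13.12, 13.03 and 13.06, and the spread between arrays was small (SD 0.05). CDH2, which encodes N-cadherin, had levels of 10.08, 10.14 and 9.97, and AXL, a receptor kinase of mesenchymal cells, 10.85, 10.91 and 10.87. All 3 genes were high, with N-cadherin lying just over the limit of the top 10%. LGALS1, a galectin, ANXA1 and ANXA2, annexins of the membrane, and the actin binding genes ACTN1, TAGLN2 and TPM2 were high at means from 10.97 for TPM2 to 13.00 for LGALS1. Near background were FAP and GREM1, genes of fibroblasts, the intermediate filament NES and the activin subunit INHBA.

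Among 18 EMT transcription factors measured, 8 lay above both bounds (44.4%), 8 between and 2 near background. SNAI2, also called SLUG, had levels of 11.79, 11.73 and 11.71. TWIST1 had levels of 9.71, 9.58 and 9.69, ZEB1 9.29, 9.23 and 9.30 and ZEB2 9.38, 9.49 and 9.48. All are repressors of epithelial genes, and SNAI2 was the one in the top 10%. SNAI1, or SNAIL, lay between the bounds with 8.51, 8.53 and 8.75, where control 3 alone reached the higher bound. TCF4, a factor that binds E-box sequences, was high at 10.42 ± 0.10, and ETS1, FOXC2 and TCF3 were above both bounds. PRRX1 and MSX2 were near background.

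Of 23 stem-like and mesenchymal stem cell markers measured, 6 lay above both bounds (26.1%, close to the 25.4% of all genes), 8 between and 9 near background. CD44, the hyaluronan receptor of stem-like breast cancer cells, had levels of 12.30, 12.23 and 12.20, among the top 10% on every array. ENG, or endoglin, a TGF-β co-receptor on mesenchymal stem cells, was high at 10.16 ± 0.17, NT5E (CD73) lay between the bounds at 8.57 ± 0.15, and THY1 (CD90) was near background at 6.59 ± 0.04. The stem cell genes ALDH1A1, PROM1, SOX2, LGR5 and LIN28B were near background, with means from 3.14 for LIN28B to 6.15 for SOX2. The plot of lineage markers shows the separation of the 3 arrays for each gene.

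**Figure D2:**
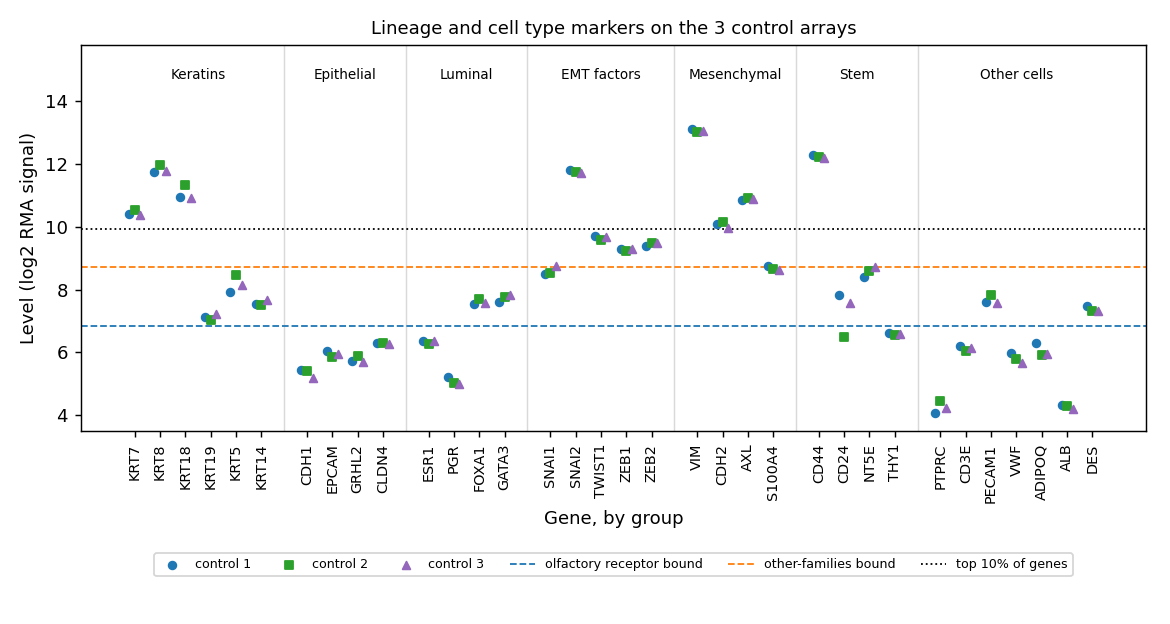
Log2 RMA level (y axis) of lineage and cell type markers by group (x axis), with 1 point for each control array and lines at the olfactory receptor bound (6.84), the other-families bound (8.73) and the top 10% of genes (9.94). KRT7, KRT8, KRT18, SNAI2, VIM and CD44 lie over the top line, and E-cadherin, EPCAM, GRHL2, ESR1 and PGR lie under the lowest one, while CD24 differs between arrays.

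Markers of other cell types were mostly near background, as 79 of 116 measured genes were. Of the rest, 26 lay between the bounds and 11 above both (9.5%, beside 25.4% of all genes). PTPRC, the CD45 antigen of leukocytes, had levels of 4.08, 4.44 and 4.24. CD3E of T cells and CD14 of monocytes were also near background, as were VWF and CDH5 of endothelium and ADIPOQ and FABP4 of fat cells. Other genes of endothelium and fat cells were not. Above the lower bound were 8 of 15 endothelial genes (53.3%) and 6 of 13 adipocyte genes (46.2%), beside 63.4% of all genes. Exceptions among the leukocyte genes were 3 that lay above both bounds. LCP1, an actin-bundling plastin, had levels of 11.65, 11.75 and 11.59, LAPTM5, a lysosomal membrane protein, 11.82, 11.24 and 11.52, and CD68, a lysosomal glycoprotein of macrophages, 10.48, 10.03 and 10.35. All arrays put them in the top 10%, while 19 of the 24 leukocyte genes measured were near background. In RNA of a whole culture, few cells with much of an RNA and many cells with little of it cannot be told apart.

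Single genes of other tissues stood above both bounds in the same way. KDR, a receptor of vascular endothelial growth factor, had levels of 9.78, 10.01 and 9.49, and PECAM1 lay between the bounds at 7.66 ± 0.14. Of 15 endothelial genes, 1 lay above both bounds, 7 between and 7 near background. The adipocyte genes PPARG, CFD and CIDEC, a nuclear receptor, a complement protease and a lipid droplet protein, had means of 9.70 ± 0.02, 9.47 ± 0.13 and 9.12 ± 0.12. MAP2, a microtubule protein of neurons, was high at 10.29 ± 0.13, and 18 of 23 neuronal and glial genes were near background. SERPINA1, the liver's antitrypsin, and CPS1, the entry enzyme of the urea cycle, had means of 9.77 ± 0.25 and 9.31 ± 0.06, while ALB, which encodes albumin, was near background at 4.27 ± 0.07. None of 19 striated muscle genes lay above both bounds, 8 lay between and 11 were near background.

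Among growth factor receptors, EGFR, PDGFRA, PDGFRB and MET lay above both bounds and ERBB3, ERBB4 and KIT near background. In all, 64 of 215 receptor genes measured lay above both bounds (29.8%, beside 25.4% of all genes), 65 between them and 86 near background. EGFR, the receptor of epidermal growth factor, had levels of 9.25, 9.13 and 9.09, above both bounds. ERBB2, or HER2, had levels of 8.81, 8.85 and 8.87 and was not separated from the higher bound (adjusted p = 0.211, limma). ERBB3 and ERBB4 were near background at 5.93 ± 0.10 and 6.06 ± 0.13. IGF1R and IGF2R, receptors of insulin-like growth factors, lay above both bounds at 9.38 ± 0.05 and 9.78 ± 0.04, but another cluster of IGF1R had a mean of 6.86 and was not above the lower bound. PDGFRA and PDGFRB, receptors of platelet-derived growth factor in mesenchymal cells, were high at 10.90, 10.93 and 10.97 and 10.20, 10.16 and 10.19. MET, the receptor of hepatocyte growth factor, was above both bounds at 9.53, 9.36 and 9.62, while KIT, FLT1, FLT3 and FGFR2 were near background.

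Of 18 kinases of the AXL, DDR, ROR and other families and 13 EPH receptors measured, 5 (27.8%) and 3 (23.1%) lay above both bounds, close to the 25.4% of all genes. RYK, a Wnt receptor, was high at 10.77 ± 0.09, and the collagen receptors DDR1 and DDR2 lay above both bounds at 9.60 ± 0.14 and 8.93 ± 0.25. The EPH receptors above both bounds were EPHB4, EPHA2 and EPHA4, which sense ephrins on neighbouring cells, at 9.33 ± 0.03, 9.22 ± 0.13 and 9.15 ± 0.17.

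Of 14 receptors of TGF-β and BMP ligands measured, 4 were high, 4 lay between the bounds and 6 were near background. The 4 high genes were the ones above both bounds (28.6%, beside 25.4% of all genes). TGFBR2, the ligand-binding kinase, had levels of 11.46, 11.63 and 11.51. TGFBR3, which encodes the co-receptor TβRIII, had levels of 10.81, 10.89 and 10.56, with control 3 the lowest array. TGFBR1, the signaling partner kinase, lay between the bounds at 7.87, 7.98 and 8.01. BMPR2 and ENG were high, and the receptors ACVRL1, BMPR1B and AMHR2 were near background.

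Nuclear hormone receptors lay close to the share of all genes, with 10 of 39 above both bounds (25.6%), 12 between and 17 near background. THRA, RXRA and NR2F6, receptors of thyroid hormone, of retinoids and without a settled ligand, were high at 10.58 ± 0.06, 10.33 ± 0.13 and 10.08 ± 0.07. NR3C1, the glucocorticoid receptor that hydrocortisone acts on, had levels of 9.03, 9.03 and 8.97, above both bounds. VDR, the vitamin D receptor, lay between the bounds at 8.17 ± 0.12, and ESR2, the second estrogen receptor, was near background at 6.24 ± 0.09. Among 19 Notch, Wnt and Hedgehog receptors, 5 lay above both bounds (26.3%, close to the 25.4% of all genes), 12 between and 2 near background. NOTCH2 was high at 10.43 ± 0.15. SMO, the Hedgehog signal transducer, and FZD4, a Wnt receptor, were the ones near background. At 7.01 ± 0.03, SMO was called above the lower bound with a trend in the moderation and with quantile normalization repeated. Both genes were called above background with the bound at the 90th percentile and with no test, by every array above its bound.

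Cytokine and death receptors had 17 of 33 genes above both bounds (51.5%, beside 25.4% of all genes), 10 between and 6 near background. OSMR, LIFR and IL6ST, chains that together form receptors of the interleukin 6 family, had levels of 12.05, 11.96 and 12.14, of 11.46, 11.38 and 11.56 and of 11.31, 11.43 and 11.37. All were in the top 10% on every array. TNFRSF1A and LTBR, receptors of the tumor necrosis factor family, TLR4, a sensor of bacterial lipid, and IL1R1, the interleukin 1 receptor, were high at 11.29 ± 0.05, 11.22 ± 0.03, 10.82 ± 0.04 and 10.59 ± 0.11. IL13RA2, TNFRSF11B, IL2RA, CD40, IL2RG and TNFRSF21 were near background.

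Of 31 chemokine and lipid mediator receptors, 4 lay above both bounds (12.9%), 10 between and 17 near background. F2R and F2RL2, receptors cut open by thrombin, had levels of 11.63, 11.59 and 11.49 and 11.72, 11.84 and 11.80. PTGFR, a prostaglandin receptor, and LPAR1, a lysophosphatidic acid receptor, lay above both bounds at 9.73 ± 0.07 and 9.04 ± 0.14. CXCR4, the receptor of CXCL12, was near background at 6.44, 6.64 and 6.32, as were ACKR3, CXCR1, CXCR2 and CCR2.

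Integrins, the receptors of matrix, had 8 of 25 subunits above both bounds (32.0%, beside 25.4% of all genes), 7 between and 10 near background. ITGB1, the shared beta chain, had levels of 10.18, 10.16 and 10.27, ITGA2 of the collagen receptor 9.97, 10.13 and 10.12, and ITGA5 of the fibronectin receptor 11.50, 11.28 and 11.69. ITGA3, ITGAV, ITGA10 and ITGA11 were high as well, at means from 9.96 for ITGA11 to 10.94 for ITGA3. ITGB4 and ITGA6, which pair in hemidesmosomes, lay between the bounds at 8.38 ± 0.07 and 8.33 ± 0.27. The leukocyte chains ITGAL, ITGAM, ITGAX, ITGA4 and ITGB7 and the epithelial chain ITGB6 were near background. The plot of receptors sets these genes against the bounds.

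**Figure D3:**
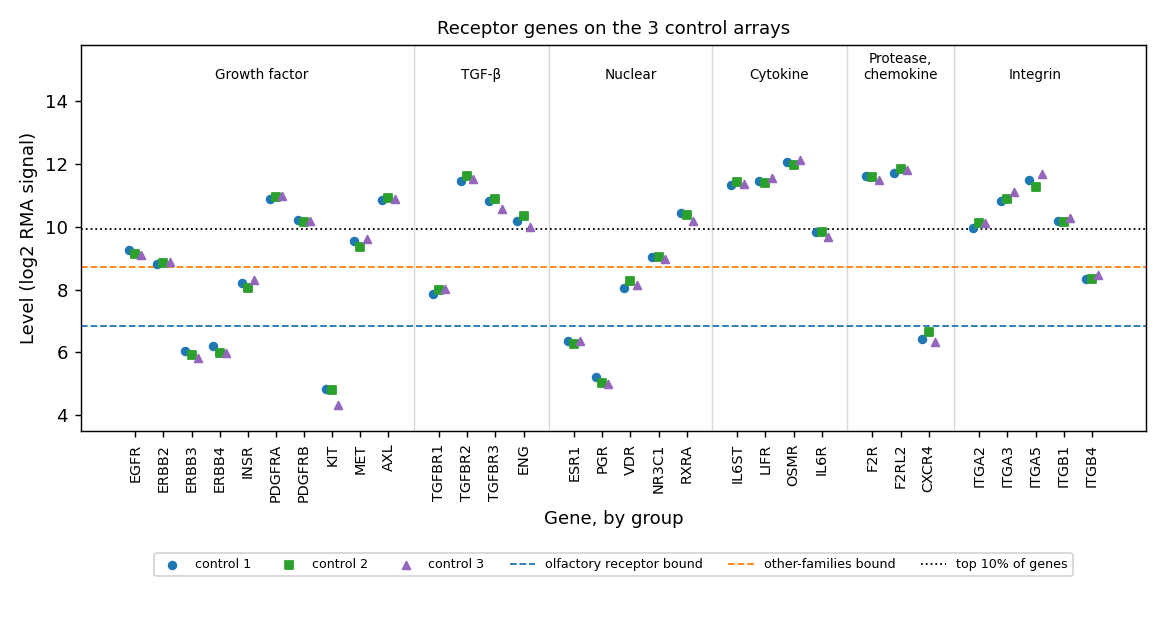
Log2 RMA level (y axis) of receptor genes by family (x axis), with 1 point for each control array and lines at the olfactory receptor bound (6.84), the other-families bound (8.73) and the top 10% of genes (9.94). Within the EGF family, EGFR lies over the middle line, ERBB2 at it, and ERBB3 and ERBB4 under the lowest line, and OSMR, LIFR, IL6ST, F2R and F2RL2 lie over the top line.

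Among matrix genes, fibronectin, TGFBI and the chains of collagen VI were high. Of 175 matrix genes measured, 57 lay above both bounds (32.6%, beside 25.4% of all genes), 58 between and 60 near background. FN1, fibronectin, had levels of 13.58, 13.41 and 13.65, and TGFBI, a secreted protein named for its induction by TGF-β, 13.55, 13.44 and 13.46. THBS1, thrombospondin 1, had levels of 12.60, 12.54 and 12.71. FN1 and TGFBI were among the 20 genes with the highest means, and control 2 was the lowest array for all 3. EFEMP1, LTBP4 and FBLN5, glycoproteins of elastic fibers, and MGP, an inhibitor of calcification, were also high. TNC, tenascin C, lay between the bounds at 7.47 ± 0.10, and POSTN, SPP1 and THBS2 were near background. In this list of 38 glycoproteins, 12 lay above both bounds (31.6%, beside 25.4% of all genes), 11 between and 15 near background.

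Of 37 collagen chains, 6 lay above both bounds (16.2%), 19 between and 12 near background. COL6A3 had levels of 12.42, 12.27 and 12.53, and COL6A1 and COL6A2, the other chains of beaded-filament collagen VI, had means of 10.63 ± 0.17 and 10.08 ± 0.21. COL1A1, a chain of fibrillar collagen I, was high at 10.14, 10.09 and 10.37, while its partner COL1A2 lay between the bounds at 7.24, 7.07 and 7.27. COL12A1 was high and COL5A1 was above both bounds. COL4A1 and COL4A2, chains of the basement membrane, lay between the bounds at 7.11 ± 0.10 and 7.86 ± 0.15. Enzymes that mature and cross-link collagen were above background throughout, with 13 of 16 above both bounds (81.2%) and LOXL3, LOXL4 and P4HA3 between. PCOLCE, which enhances procollagen cleavage, had levels of 12.85, 12.88 and 12.78, and the lysyl hydroxylase PLOD1 and the collagen chaperone SERPINH1 had means of 12.02 ± 0.10 and 11.50 ± 0.10.

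Laminins and other basement membrane genes had 8 of 16 above both bounds, 5 between and 3 near background. SPARC, a matricellular protein, had levels of 12.51, 12.35 and 12.43, and FBLN1, fibulin 1, had a mean of 11.93 ± 0.04. The laminin chains LAMB1, LAMB2 and LAMC1 were high at 11.44 ± 0.12, 10.74 ± 0.09 and 10.28 ± 0.15, and LAMB3 lay between the bounds. The alpha chains LAMA1, LAMA2 and LAMA4 were the only 3 measured genes of this list near background. Among 25 proteoglycan and hyaluronan genes, 6 lay above both bounds (24.0%, close to the 25.4% of all genes) and 13 near background. SRGN, serglycin, was high at 11.14 ± 0.08, and LUM, lumican, was near background at 3.38 ± 0.07.

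Matrix proteases had 9 of 34 genes above both bounds (26.5%, close to the 25.4% of all genes), 12 between and 13 near background. MMP2, a gelatinase, had levels of 12.08, 11.98 and 11.95, all in the top 10%. MMP14, which activates it, lay between the bounds at 7.91, 7.86 and 8.06, and the collagenase MMP1 and the gelatinase MMP9 were near background at 6.20, 6.39 and 6.11 and 6.67, 6.51 and 6.54. CTSB, a lysosomal cathepsin, and the sheddases ADAM9 and ADAM10 were high. PLAU, the urokinase activator, lay between the bounds at 8.52 ± 0.10, and its receptor PLAUR above both at 9.64 ± 0.13. TIMP1, an inhibitor of these proteases, had levels of 13.64, 13.61 and 13.68, the tenth highest mean on the arrays, and TIMP2 was high at 10.42 ± 0.08. TIMP3 had clusters with means of 6.08 and 8.39, of which only the second lay above the lower bound.

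Of 146 junction genes measured, 40 lay above both bounds (27.4%, beside 25.4% of all genes), 50 between and 56 near background. Of 20 cadherins, 4 lay above both bounds, 5 between and 11 near background. Besides CDH2, the cadherins CDH12, CDH6 and CDH18 lay above both bounds at 9.60 ± 0.09, 9.60 ± 0.28 and 9.12 ± 0.14. CDH3, or P-cadherin of basal cells, was near background at 5.66, 5.57 and 5.74. In the plaque under cadherins, CTNNB1 (beta-catenin) had levels of 11.72, 11.81 and 11.67 and CTNNA1 (alpha-catenin) 9.99, 10.23 and 10.10. Both catenins were high on every array. Of 13 plaque genes, 5 lay above both bounds, 3 between and 5 near background, and among the last were the catenins CTNNA2, CTNNA3 and CTNND2 at 5.92 ± 0.16, 5.36 ± 0.06 and 6.97 ± 0.07.

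Of 14 desmosome genes, 3 lay above both bounds (21.4%, beside 25.4% of all genes), 2 between and 9 near background. DSP, desmoplakin, which ties desmosomes to keratins, had levels of 5.92, 5.81 and 5.78, under the lower bound. DSG2, a desmosomal cadherin, lay above both bounds at 9.30, 9.22 and 9.23, and so did JUP and PERP, while DSC2 was near background at 5.07 ± 0.06. Among 21 claudins, the sealing proteins of tight junctions, 1 lay above both bounds, 9 between and 11 near background. CLDN12 was high at 10.14, 10.09 and 10.13. CLDN3, CLDN4 and CLDN7, whose loss defines claudin-low tumors, had means of 8.04 ± 0.04, 6.29 ± 0.02 and 6.58 ± 0.04, the first between the bounds and the others near background. TJP1, the scaffold ZO-1, lay above both bounds at 9.38 ± 0.14. Of 22 scaffold and polarity genes, 4 lay above both bounds (18.2%), 9 between and 9 near background. GJA1, connexin 43, was the gap junction gene above both bounds out of 18, with 8.95, 9.41 and 9.28, where control 1 was the lowest array.

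Of 34 focal adhesion genes, 21 lay above both bounds (61.8%), 12 between and 1 near background (FERMT3, the kindlin of blood cells). ACTN4, an actin cross-linker, had levels of 12.28, 12.45 and 12.25, and PTK2, focal adhesion kinase, 10.32, 10.32 and 10.32. LPP and CSRP1, LIM domain proteins, ZYX and TLN1, which link integrins to actin, and ILK and PARVA, which form 1 complex, were high. The 6 hemidesmosome genes measured were all above the lower bound, with CD151, DST and PLEC high at 11.95 ± 0.18, 10.26 ± 0.04 and 9.97 ± 0.08. The plot of matrix and junction genes shows CTNNB1 and CTNNA1 over the line of the top 10% and CDH1, DSP and CLDN4 under the lower bound.

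**Figure D4:**
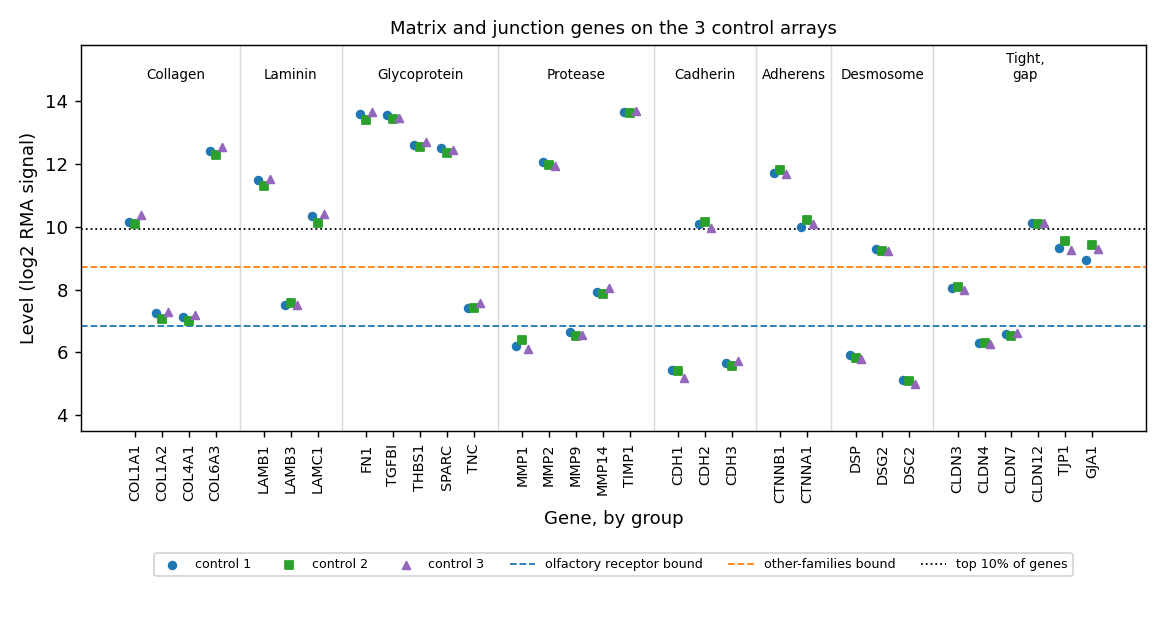
Log2 RMA level (y axis) of matrix and junction genes by group (x axis), with 1 point for each control array and lines at the olfactory receptor bound (6.84), the other-families bound (8.73) and the top 10% of genes (9.94). FN1, TGFBI, THBS1, SPARC, COL6A3, MMP2 and TIMP1 lie well over the top line, and CDH1, CDH3, DSP, DSC2, CLDN4, CLDN7, MMP1 and MMP9 under the lowest one.

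Of 339 metabolic genes measured, 186 lay above both bounds (54.9%, beside 25.4% of all genes), 82 between and 71 near background. For glucose transport and glycolysis, 18 of 31 lay above both bounds and 14 were high. GAPDH had levels of 13.97, 13.92 and 13.95, the third highest mean on the arrays. LDHA, which makes lactate, had levels of 13.30, 13.34 and 13.29, and SLC2A1, the glucose transporter GLUT1, 11.57, 11.54 and 11.60. HK2, the inducible hexokinase, was high at 10.71, 10.23 and 10.55. The isoforms of other tissues were near background, namely PKLR of liver and red cells, SLC2A2 of liver and pancreas, HK3 of leukocytes, LDHC of testis, and PFKFB1 and PFKFB2.

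In the pentose phosphate pathway, TKT, PGD and TALDO1 were high and the transketolase-like genes TKTL1 and TKTL2 near background, of 10 genes measured. Of 20 genes of gluconeogenesis, glycogen and the urea cycle, 6 lay above both bounds (30.0%), 5 between and 9 near background. The gluconeogenic enzymes PCK1, G6PC1 and FBP1 were near background at 5.87 ± 0.11, 5.27 ± 0.11 and 5.88 ± 0.09, and PCK2, the mitochondrial form, lay between the bounds at 8.27 ± 0.09. GBE1 and GYS1, which build glycogen, were high at 10.65 ± 0.28 and 10.36 ± 0.11. ASS1, which condenses citrulline with aspartate in arginine synthesis, was high at 12.26, 12.19 and 12.11, whereas OTC and ARG1 of the urea cycle in liver were near background at 4.91 ± 0.09 and 3.82 ± 0.10.

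Mitochondrial genes were above both bounds in 22 of 28 genes of the citrate cycle and pyruvate entry (78.6%) and 33 of 47 respiratory chain subunits (70.2%). MDH2, the mitochondrial malate dehydrogenase, had levels of 12.27, 12.37 and 12.17, and ATP5F1B, a catalytic subunit of ATP synthase, 12.68, 12.73 and 12.60. Near background were the testis subunit PDHA2, the kinase PDK3 and the tissue-restricted subunits COX4I2, COX7A1 and COX6B2.

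Fatty acid synthesis and desaturation had 15 of 22 genes above both bounds (68.2%), and 11 were high. SCD, the stearoyl desaturase, had levels of 12.10, 11.99 and 11.90, and FASN, fatty acid synthase, 10.32, 10.36 and 10.33. ELOVL2, ELOVL3 and ELOVL4, elongases of very long chains in special tissues, were near background. In fatty acid oxidation, 9 of 21 lay above both bounds, and the subunits HADHA and HADHB of its trifunctional enzyme were high at 11.07 ± 0.12 and 10.40 ± 0.06. CPT1A, which admits fatty acids to mitochondria, lay between the bounds at 8.22 ± 0.22. All 17 cholesterol genes measured were above the lower bound and 13 were above both, with MSMO1 and SQLE high at 11.56 ± 0.15 and 10.84 ± 0.07.

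GLUL, glutamine synthetase, had levels of 12.68, 12.46 and 12.56, and 14 of 22 genes of serine, one-carbon and glutamine metabolism lay above both bounds. PHGDH, the first enzyme of serine synthesis, lay above both at 9.23, 9.59 and 8.90, and PSAT1, the next enzyme, between them at 8.07 ± 0.39. SLC38A2, a sodium-coupled amino acid transporter, had levels of 12.78, 12.82 and 12.87, and SLC1A5, a glutamine transporter, had a mean of 10.32 ± 0.02 with another cluster at 7.24. Of 24 amino acid transporters, 10 lay above both bounds (41.7%, beside 25.4% of all genes) and 10 near background. All 22 nucleotide synthesis genes measured were above the lower bound, with IMPDH2, GMPS, PAICS and ATIC high.

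Antioxidant genes had 21 of 34 above both bounds (61.8%). GPX4, which reduces lipid peroxides, had levels of 11.66, 11.77 and 11.47, and NQO1, a quinone reductase, 11.42, 11.43 and 10.82. FTL, the ferritin light chain, MGST1 and GSTP1, glutathione transferases, and SOD2, the mitochondrial superoxide dismutase, were high at means from 11.28 for SOD2 to 12.64 for FTL. The peroxidases GPX2, GPX3, GPX5, GPX6 and GPX7 and the transferases GSTA1 and GSTM3 were near background. Cytochrome P450 and steroid enzymes had 7 of 41 above both bounds (17.1%) and 24 near background. By the share above both bounds, this was the metabolic list that fell under the 25.4% of all genes. HSD17B12 and CYP4B1 were high at 10.45 ± 0.07 and 10.03 ± 0.06, SULT1E1, which inactivates estrogen, lay above both bounds at 9.85 ± 0.29, and the liver enzymes CYP3A4, CYP2C8 and CYP7A1 were near background.

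As reference groups, 21 of 29 proteasome subunits and 8 of 25 mitotic and replication genes lay above both bounds, and 28 and 25 above the lower bound. PSMA8, the testis subunit, was the proteasome gene near background at 3.21 ± 0.14. CDC20, an activator of the anaphase-promoting complex, was high at 10.22 ± 0.29, and MKI67, a marker of cycling cells, lay between the bounds at 8.38, 8.95 and 8.41. The levels do not give the share of cycling cells. The plot of gene lists gives these shares for all 54 lists.

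**Figure D5:**
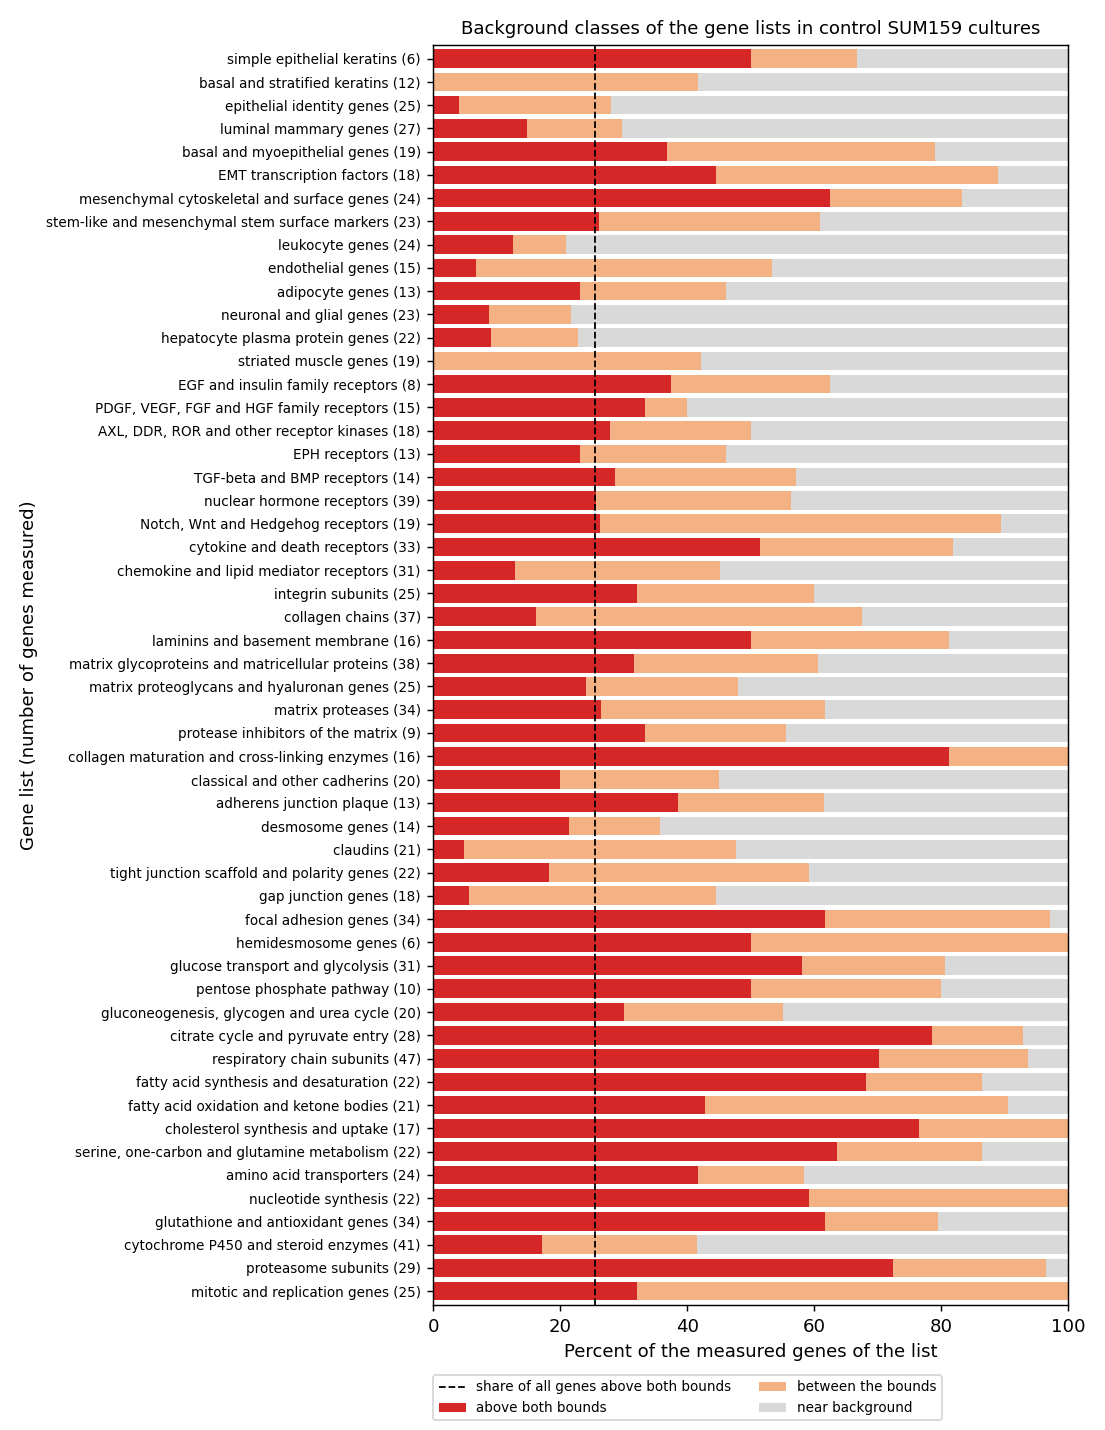
Percent of the measured genes of each of 54 lists (x axis) that lay above both bounds (red), between them (orange) and near background (grey), with the number of genes measured in parentheses and a dashed line at the share of all genes above both bounds (25.4%). Collagen maturation (81.2%), citrate cycle (78.6%) and cholesterol lists reach past the line, and basal keratins, striated muscle, epithelial identity, claudins and gap junction genes fall short of it.

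The 20 genes with the highest mean levels lay between 13.48 and 14.01. Of these, 10 were genes of ribosomal proteins or translation, a ribosomal pseudogene included (RPS28, RPL18, RPL13AP5, RPL5, RPS2, RPL8, RPS3, RPL3, RPS4X and the elongation factor EEF1A1). The others were FAF2, GAPDH, PTMA, MT2A (a metallothionein), ACTB and ACTG1 (the cytoplasmic actins), TIMP1, HSPA8, FN1 and TGFBI. Among the top 100 genes, 30 encode ribosomal proteins, and 47 of the 65 ribosomal protein genes measured were high. Some of these levels are uncertain, because RPL13AP5 is a near-identical pseudogene copy, and because other clusters of FAF2, PTMA and RPL5 had means down to 10.41, 7.57 and 10.34.

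The genes above the lower bound that varied most between the 3 arrays were CRISP3, CD24, DDIT4, MIR222, SCARNA7, MIR21, SERPINA3, DEPP1, CDC6 and HLA-DPA1, in order of SD. Of these, CRISP3, DDIT4, SCARNA7 and DEPP1 lay above both bounds by their means. For CRISP3, control 3 at 8.09 lay under the higher bound of that array, 8.75. With robust moderation CRISP3 was undecided at the lower bound. The other genes lay between the bounds by their means, where mean levels cannot be told apart from silent genes. On control 3 alone, MIR21 and SERPINA3 were over the higher bound. CRISP3, a secreted cysteine-rich protein, had levels of 9.51, 9.63 and 8.09, and DDIT4, a stress-induced inhibitor of mTOR signaling, 10.73, 10.68 and 9.55. For both, control 3 was more than 1 log2 unit under the other arrays. SERPINA3, an acute-phase protease inhibitor, had levels of 8.64, 8.43 and 9.55, and HLA-DPA1, a class II antigen presentation chain, 7.54, 7.54 and 8.45. Here control 3 was the highest array. CDC6, a replication licensing factor, was highest on control 2 at 7.54, 8.18 and 7.13.

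The microRNA genes in that group are shown by their mature sequences, since they are the regulatory RNAs among the most variable genes. The array probes the gene or its precursor and not the mature form. Sequences are from RefSeq (GRCh38.p14), 5′ to 3′, with the seed, bases 2 to 8, in capitals. The seeds of the 3 forms differ, so they fall into 3 seed groups.
hsa-miR-21-5p (chr17:59841273-59841294, plus strand): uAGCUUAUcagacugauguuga
hsa-miR-222-3p (chrX:45747036-45747056, minus strand): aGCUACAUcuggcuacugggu
hsa-miR-222-5p (chrX:45747073-45747094, minus strand): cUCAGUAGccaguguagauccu
MIR21, a microRNA gene often high in tumors, had levels of 8.57, 8.36 and 9.48, and MIR222 8.04, 6.97 and 8.05. MIR21 was highest on control 3, and MIR222 was lowest on control 2, by about 1 log2 unit. Both genes were classed between the bounds by their means, so their mean levels cannot be told apart from silent genes. MIR21 on control 3 lay over the higher bound of that array, 8.75, and under it on controls 1 and 2.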

How the data were processed

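The authors measured RNA of SUM159 cells in three-dimensional culture on Affymetrix arrays of the Human Gene ST type and deposited log2 signals. They made these with RMA (oligo, R 3.0.1), which subtracts background, gives the arrays equal distributions and summarizes probes per transcript cluster. The filter that led to the deposited clusters is not given in the sources used here. Arrays were grouped by their labels, and the 3 controls alone were used. Raw intensities were not used, and precision is limited by the small number of arrays.
Of the deposited clusters, 19129 carried 1 gene symbol, 1735 several and 1284 none. Symbols came from the array's annotation in GEO, and the mature microRNA sequences from RefSeq. A gene was taken from its cluster with the highest mean control level.
The difference between a gene's level and the 95th percentile of the olfactory receptor genes on the same array was tested against 0 in R 4.3.3 with limma 3.58.1 (two-sided moderated test, Benjamini-Hochberg adjustment over 18276 genes, threshold 0.05). limma estimated 1 common spread for all genes, with a standard error of 0.0904, so a gene was called above the bound from a mean excess of 0.18, whatever its own spread. That call includes 41 genes with an array under its bound. Alternatives were the bound of other silent families, the 90th and 99th percentile, other rules for the cluster, moderation with a trend or made robust, a call with no test, a margin of 0.5, a repeat of quantile normalization, identical clusters counted once and each array left out. The procedure was tested on simulated data.
The 54 lists and the members were chosen with earlier results of these data known. They hold 1268 genes, of which 1162 were measured, 24 lay only on clusters with several symbols and 82 were not analysed here. Named were the defining genes of the lists, the 4 genes of each list with the highest mean, members of lists where 5 or fewer were above or 5 or fewer were not above the lower bound, the 20 genes with the highest means and the 10 genes above background with the largest SD. Not all of them are printed, and further genes were picked for the text with their values known.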

Additional observations from a re-analysis of the deposited data

Results flagged for a closer look

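Transcript clusters without a gene symbol were left out of every comparison above. Of 1284 such clusters, 739 (57.6%) had all 3 control arrays above the olfactory receptor bound of the same array, and 322 (25.1%) had all 3 above both bounds. They drew attention as signal in measurements that were not otherwise used, and they are not named here.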

How the results depend on the processing

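The choice of the silent genes that set the bound changed the counts most. With other silent families in place of olfactory receptors, the genes above background went from 11585 to 4649. By theme they went from 89 to 44 for lineage genes, 37 to 11 for other cell types, 129 to 64 for receptors, 115 to 57 for matrix, 90 to 40 for junctions and 53 to 29 for reference genes, and metabolism went from 268 to 186. With the 99th percentile of olfactory receptors, 58 lineage genes, 15 genes of other cell types and 7786 genes in all were above background. The count over all genes lay between 10473 and 13113 under the other alternatives and between 11431 and 11512 with an array left out. Of 54 lists, 41 moved by more than 1.5 times with the other families, 18 with the 99th percentile, 6 with the 90th, 3 with the margin of 0.5 and 0 elsewhere. Of 263 named genes above background, 55 were not above with the other families, 37 with the 99th percentile and 11 with the margin, and at most 3 under any further alternative. Of the named genes not above background, 23 were above with the 90th percentile, and at most 5 under any further alternative. Among those gained with the 90th percentile were MMP9, THY1, CLDN7, TAGLN, CNN1, CDH5, CD14, NES, GREM1 and PRRX1. CRISP3 and CD24 were undecided with robust moderation. No paired analysis was possible because only the control arrays entered the fit. Levels between the bounds (38.0% of genes) cannot be told apart from silent genes by these data, and the cause of the difference between the reference families was not tested.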

Other observations

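By chromosome, the share of measured genes above the olfactory receptor bound ran from 51.4% of 690 genes on chromosome X to 76.1% of 757 on chromosome 16, with chromosome Y left out. The share above both bounds was 20.4% on chromosome X and 27.7% on chromosome 16. Chromosome 21 had 17.8% of 236 genes above both bounds. These are descriptions over 18228 genes with no test, and the olfactory receptor genes themselves are unevenly placed.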
